A study of Mus musculus with 15 samples.

Results

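Plasmacytoid dendritic cells (pDC) and type 1 conventional dendritic cells (cDC1) from the thymus of mice that lack the kinase LKB1 in CD11c-expressing cells were compared over all genes. The comparison used 5 of the 15 libraries of the series, 3 of pDC and 2 of cDC1, chosen by genotype and subset labels alone and by no measured value. The mice were Itgax-cre Stk11 fl/fl (KO) on the C57BL/6 background, in which the promoter of Itgax, the CD11c gene, drives the Cre recombinase that deletes the LKB1 gene Stk11. Every library of the series, the WT libraries included, came from male and female mice that were 8 to 12 weeks old when B16 melanoma cells secreting Flt3L, the growth factor that expands dendritic cells, were placed under the skin of the flank. Thymi were taken 9 to 12 days after that. Cells were enriched on CD11c beads and sorted, cDC1 as positive for CD8a, CD11c and MHC class II and pDC as positive for Siglec-H with intermediate CD11c. The labels do not say that replicate libraries came from separate mice, so p-values measure only the spread between libraries, which may be technical. That spread was estimated over all 6 groups of the series. Where the same comparison in WT is given as a reference, it rests on 3 pDC WT and 2 cDC1 WT libraries.

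pDC and cDC1 both carry high levels of the factor IRF8 but differ in their work. pDC recognise nucleic acids in endosomes and release type I interferon, and their identity is kept by the basic helix-loop-helix factor TCF4 (E2-2), which the inhibitor ID2 opposes. cDC1 need BATF3 and ID2 to develop. They take up dead cells and cross-present their antigens to CD8 T cells, which needs WDFY4, and in the thymus they help to delete self-reactive thymocytes. LKB1 phosphorylates AMPK and a family of related kinases and ties cell growth and metabolism to nutrient supply.

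The labels were checked first against the markers of both subsets. Siglech (chr7:55768178-55778925, GRCm38), the gene of the lectin used to sort pDC, stood at 18780.5, 21411 and 20117 CPM in pDC KO and 133 and 238 CPM in cDC1 KO (CPM, counts scaled to library size with TMM factors). Naaa (chr5:92257659-92278170), a lipid amidase typical of cDC1, stood at 1895 and 1636 CPM in cDC1 KO and 30.3, 21.9 and 21.4 CPM in pDC KO. Irf8 (chr8:120736358-120756694), a transcription factor gene of both subsets, stood at 5897, 8464 and 6696 CPM in pDC KO and 3508 and 3077 CPM in cDC1 KO. The pDC were thus high for Siglech and low for Naaa and the cDC1 the reverse, without overlap, and both subsets were high for Irf8. Being a sort marker, Siglech is no finding here, and the same holds for Cd8a, Itgax and the MHC class II genes. Cd8a and Itgax RNA did not pass the test between the sorted groups. Cd8a stood at 78.6, 102 and 87.2 CPM in pDC KO and 141 and 114 CPM in cDC1 KO (log2 difference -0.52 ± 0.30, adjusted p = 0.251 in edgeR), and Itgax stood at 184, 189.8 and 199 CPM in pDC KO and 135 and 158 CPM in cDC1 KO (0.39 ± 0.25, adjusted p = 0.31). Stk11 itself stood at 43.5, 33.2 and 36.6 CPM in pDC KO and 30.6 and 18.4 CPM in cDC1 KO (adjusted p = 0.209), but 3' tags count the end of the transcript and do not check the deletion.

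The 5 libraries held 5453387 to 7490137 counts. The 2 cDC1 KO libraries correlated at a Spearman rho of 0.976 over genes and the pDC KO pairs at 0.932 to 0.953, and no pair agreed within sampling noise. At an equal depth of 3928164 counts, 10854 to 11193 genes were detected in pDC KO and 12580 to 12627 in cDC1 KO. Ribosomal protein genes took 4.02 to 4.60% of counts in pDC KO and 6.28 to 6.35% in cDC1 KO, and Siglech alone took 1.83 to 2.11% in pDC KO. The part of these library differences in the results was not tested. In bulk libraries, fewer cells of a type and less RNA per cell cannot be told apart.

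Of 11746 genes tested with edgeR's quasi-likelihood test, 2521 (21.5%) passed an adjusted p of 0.05 between pDC KO and cDC1 KO. Of these, 1066 (9.08% of the tested genes) were higher in pDC KO and 1455 (12.4%) were lower. These shares are the background for each count of list members given below. More than 4-fold differences made up 545 of the higher and 784 of the lower calls. The median log2 difference over all tested genes, pDC KO minus cDC1 KO, was -0.09. With offsets for transcript length and GC content that median became 0.13 and the calls split into 1372 higher and 1106 lower, so that 55.4% rather than 42.3% of the calls were higher. The counts fell to 608 higher and 801 lower without cDC1 KO 1 and to 547 higher and 828 lower without cDC1 KO 2, each of which leaves a single cDC1 KO library assumed to vary like the other groups. The values of the groups did not overlap for 6092 of the tested genes (51.9%), which is the background for each gene described below as not overlapping. Throughout, a fold is the fitted log2 difference on the linear scale, "higher" and "lower" refer to pDC KO against cDC1 KO, and a value after ± is a standard error. Irf8, Ccr9, Clec9a, Ctsl, Ifnar2, Itgam, Mctp2, Mzb1, Plcb1 and Timp2, among others, overlap another gene model on their own strand, so that their reads could be split or shared.

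**Figure D1:**
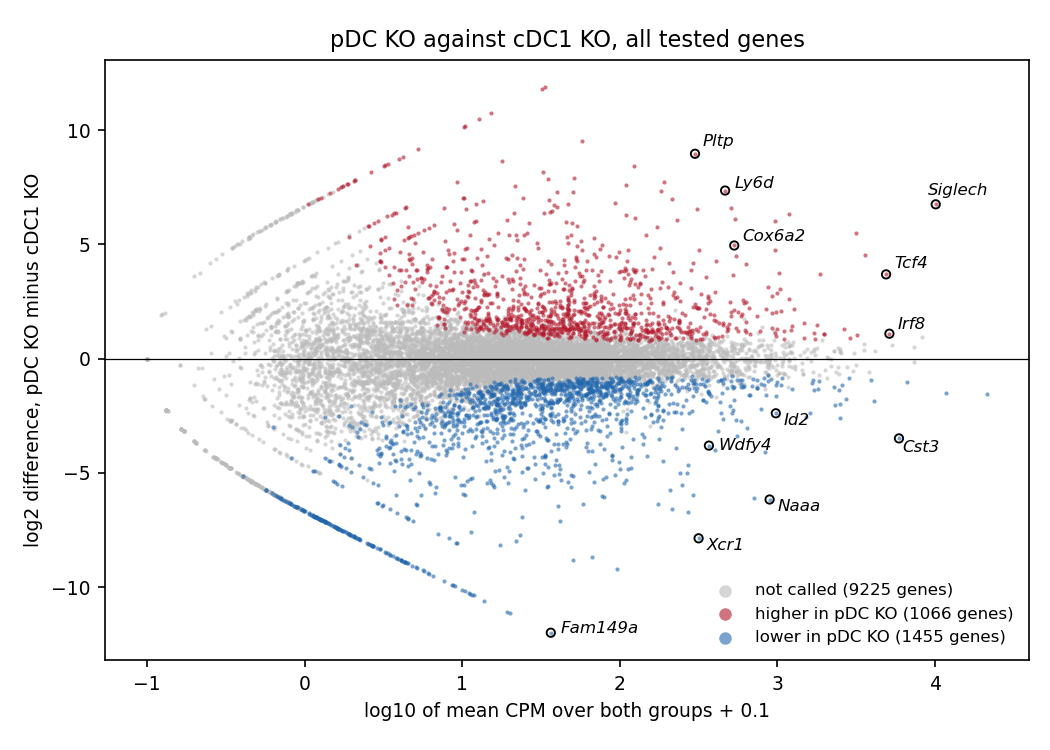
Each point is 1 of the 11746 tested genes, with the log10 of its mean CPM over pDC KO and cDC1 KO (plus 0.1) on the x axis and the fitted log2 difference, pDC KO minus cDC1 KO, on the y axis. Red marks the 1066 genes called higher in pDC KO, blue the 1455 called lower, and the diagonal streaks at the left are genes with few or no counts in 1 group.

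The transcription factors of the pDC programme were high in the LKB1-deficient pDC. Of 14 such factors tested, 10 rose, none fell, and their median log2 difference was 2.75 against -0.09 for all genes; the counts were 10 higher and 1 lower without pDC KO 1 and 10 higher and 1 lower with limma voom. Tcf4, the E protein that holds pDC identity, stood at 9454, 9121 and 8774 CPM in pDC KO and 683 and 729 CPM in cDC1 KO, a 12.9-fold difference (log2 3.69 ± 0.27, adjusted p = 4.16e-08). Spib, an ETS factor of pDC and B cells, stood at 325, 360.3 and 359 CPM in pDC KO and 11.8 and 12.4 CPM in cDC1 KO (28.8-fold, log2 4.85 ± 0.35, adjusted p = 3.72e-08). For both genes all pDC KO libraries lay far above both cDC1 KO libraries. Runx2, which pDC need to leave the bone marrow, was 27.2-fold higher, and Zeb2, a zinc finger repressor, 17.9-fold higher. Mef2c (4.22-fold), Ets1 (9.89-fold), Tcf12 (5.45-fold), which encodes an E protein related to Tcf4, and Bcl11a (8.29-fold), which acts upstream of Tcf4, rose as well. Irf7, the interferon master regulator, did not pass the test, at 324, 271 and 309 CPM in pDC KO and 166 and 232 CPM in cDC1 KO (log2 0.60 ± 0.32, adjusted p = 0.2), and stood at 125, 135 and 73.2 CPM in pDC WT and 199 and 195 CPM in cDC1 WT.

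The factors of the cDC1 programme were low in pDC KO. Of 12 tested, none was called higher and 8 were called lower, with a median log2 difference of -1.88 (1 higher and 8 lower with DESeq2, 1 higher and 9 lower with limma voom, 1 higher and 6 lower with a fit of only the 2 groups, and 1 higher and 7 lower with the offsets). Batf3, the AP-1 family factor that cDC1 require, stood at 90.8 and 70.6 CPM in cDC1 KO and 4.8, 3.47 and 0 CPM in pDC KO (28.5-fold lower, log2 -4.83 ± 0.90, adjusted p = 0.00115). Id2, the inhibitor of E proteins, stood at 1319 and 1974 CPM in cDC1 KO and 435, 343 and 163 CPM in pDC KO (5.25-fold lower, log2 -2.39 ± 0.38, adjusted p = 0.000143). Batf3 was near 0 in pDC KO, whereas Id2 RNA was present in every pDC KO library and only lower there. Bcl6, a repressor with a role in cDC1, fell 22-fold, Zfp366 (DC-SCRIPT) fell 25.4-fold, and Zbtb46, a factor of conventional dendritic cells, fell 6.73-fold. Nfil3, which acts early in cDC1 development, fell 6.62-fold (adjusted p = 0.0091), a call lost without cDC1 KO 2 (adjusted p = 0.0902).

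**Figure D2:**
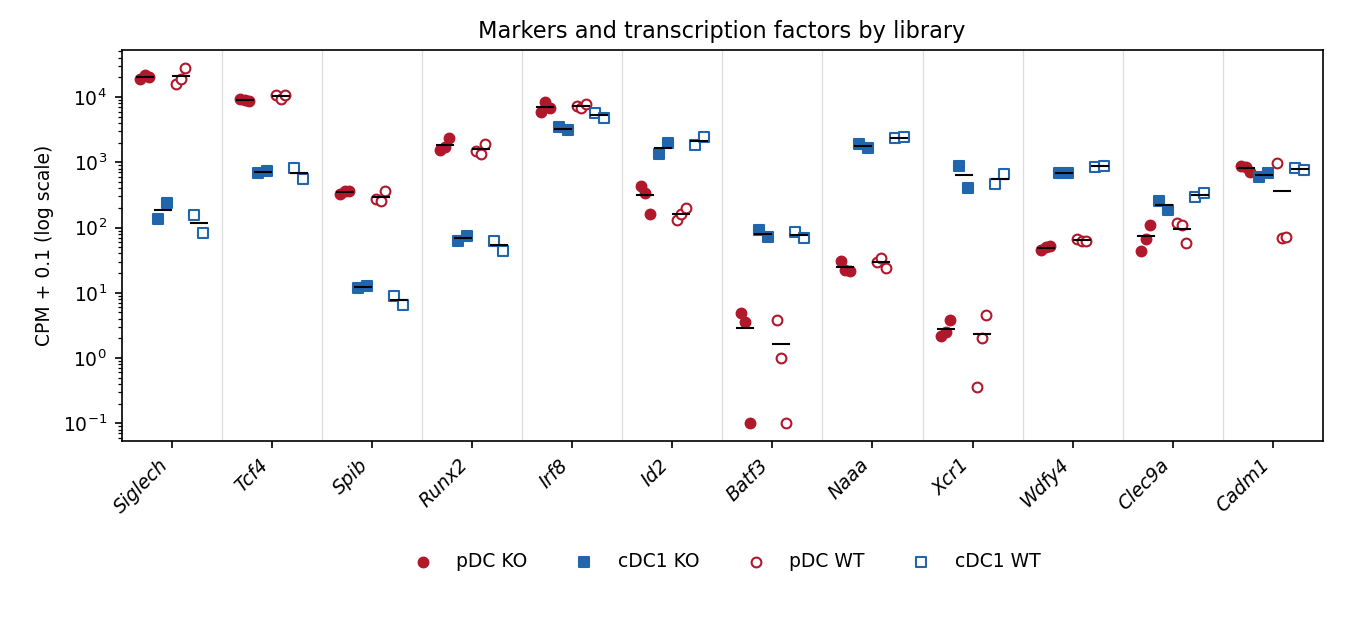
CPM plus 0.1 on a log scale for 12 markers and transcription factors. Each symbol is 1 library, filled for KO and open for WT, circles for pDC and squares for cDC1, and the black bars are group means; Siglech, Tcf4, Spib and Runx2 lie above cDC1 in every pDC library, Naaa, Xcr1, Wdfy4 and Batf3 below, and Irf8 is high in all.

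TCF4 binds E-box sites and BATF3 binds AP-1 sites as a partner of JUN proteins. The 250 bases before the start of called genes were therefore searched on both strands, in RefSeq promoters of GRCm38.p6. The motifs were CACCTG (an E-box, found on the other strand as CAGGTG) and TGANTCA (an AP-1 site). Searched were called genes with the smallest p, over all genes or within the pDC and cDC1 lists. Genes on the chromosome of Tcf4 were left out. Of 16 such genes called higher in pDC KO, 4 held CACCTG, and of 16 called higher in cDC1 KO, 2 held TGANTCA. Over all 27025 promoters, of tested and untested genes alike, 17.1% held CACCTG and 6.87% held TGANTCA. Over the 9258 promoters of tested genes these shares were 14.9% and 4.23%. Promoters were matched for 9258 of the 11746 tested genes, under the share needed to compare the called genes with the rest, so no such comparison is given. Shown are 3 promoters of pDC genes, with the E-box in capitals, and 2 of cDC1 genes, with the AP-1 site in capitals, as places where a reader can see these letters beside genes that differ between the subsets. A match is a description of the sequence and shows no binding. The windows are chr7:72306596-72306845 (minus strand), chr7:55767934-55768183 (plus strand) and chr11:118355412-118355661 (minus strand) for Mctp2, Siglech and Timp2, and chr5:21372423-21372672 (plus strand) and chr2:181424389-181424638 (minus strand) for Fgl2 and Zbtb46. The Zbtb46 window also holds CACCTG, left in lower case. Where a gene had several listed promoters, the first listed was taken, and whether these cells use that start was not tested. The Zbtb46 window ends in a run of mostly c and t followed by cag, as introns do before an exon. It may therefore lie inside the gene and not at its start.
Mctp2: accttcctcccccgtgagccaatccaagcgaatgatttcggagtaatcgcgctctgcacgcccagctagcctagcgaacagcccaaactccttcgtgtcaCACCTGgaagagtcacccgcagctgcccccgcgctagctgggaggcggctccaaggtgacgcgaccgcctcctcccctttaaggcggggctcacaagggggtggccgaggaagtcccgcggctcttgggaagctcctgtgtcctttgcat
Siglech: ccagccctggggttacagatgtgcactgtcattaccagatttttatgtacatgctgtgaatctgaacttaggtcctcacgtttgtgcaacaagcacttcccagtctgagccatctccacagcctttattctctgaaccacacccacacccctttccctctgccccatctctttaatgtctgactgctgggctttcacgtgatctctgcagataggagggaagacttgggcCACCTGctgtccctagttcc
Timp2: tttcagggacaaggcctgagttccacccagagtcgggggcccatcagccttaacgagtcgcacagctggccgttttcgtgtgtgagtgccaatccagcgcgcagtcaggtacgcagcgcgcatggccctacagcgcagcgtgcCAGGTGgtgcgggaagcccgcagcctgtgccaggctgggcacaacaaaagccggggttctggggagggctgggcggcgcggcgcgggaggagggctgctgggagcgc
Fgl2: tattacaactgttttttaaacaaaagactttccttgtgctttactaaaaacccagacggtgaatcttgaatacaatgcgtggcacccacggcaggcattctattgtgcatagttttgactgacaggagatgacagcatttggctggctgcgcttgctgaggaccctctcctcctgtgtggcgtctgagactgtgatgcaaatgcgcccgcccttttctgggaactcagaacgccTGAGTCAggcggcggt
Zbtb46: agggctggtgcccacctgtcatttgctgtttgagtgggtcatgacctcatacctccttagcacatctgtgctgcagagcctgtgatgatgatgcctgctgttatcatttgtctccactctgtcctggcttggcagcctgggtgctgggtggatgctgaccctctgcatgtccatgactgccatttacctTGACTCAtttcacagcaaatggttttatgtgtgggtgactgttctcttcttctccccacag

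Genes of the pDC surface and of its secreted products were high in pDC KO. Of 34 tested members of 36, 30 rose and none fell, with a median log2 difference of 4.51. Without the sort gene Siglech, 29 of 33 rose, with a median of 4.50. Pltp, a phospholipid transfer protein, stood at 579.8, 534 and 687 CPM in pDC KO and 0.916 and 1.46 CPM in cDC1 KO (502-fold, log2 8.97 ± 0.49, adjusted p = 4.88e-09). Ly6d, a small surface protein of lymphoid precursors, stood at 1079, 914 and 793 CPM in pDC KO and 4.58 and 6.71 CPM in cDC1 KO (164-fold, log2 7.36 ± 0.45, adjusted p = 9.18e-09). Klk1, a secreted serine protease of the kallikrein family, stood at 225, 245 and 266 CPM in pDC KO and 0.654 and 0.729 CPM in cDC1 KO (346-fold, adjusted p = 3.72e-08). For each of the 3, the lowest pDC KO library lay far above the highest cDC1 KO library. Lair1, an inhibitory receptor for collagen, was 65.1-fold higher, Pacsin1, an adaptor of endocytosis and the cytoskeleton, 95.5-fold, and Cd300c, a receptor of the CD300 family, 77.3-fold. Ccr9, the receptor for the thymic and gut chemokine CCL25, stood at 4901, 4304 and 9366 CPM in pDC KO and 181 and 93.3 CPM in cDC1 KO (45.1-fold, adjusted p = 2.73e-06), with pDC KO 3 well above the other pDC KO libraries. Bst2, the tetherin that the PDCA-1 antibody detects, rose 5.4-fold, and Cd4 28.1-fold.

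Among the genes with the smallest p-values on the pDC side were enzymes, adaptors and membrane proteins. Mctp2, a membrane protein with C2 domains, stood at 312, 430.3 and 403 CPM in pDC KO and 1.83 and 1.75 CPM in cDC1 KO (211-fold, log2 7.72 ± 0.48, adjusted p = 9.18e-09). Cybb, the catalytic subunit of the phagocyte NADPH oxidase, stood at 6861, 7861 and 6168 CPM in pDC KO and 240.3 and 358 CPM in cDC1 KO (23.3-fold, adjusted p = 3.72e-08). Each varied little over the 3 pDC KO libraries. Cmah, the enzyme that makes N-glycolylneuraminic acid, was 161-fold higher, Timp2, an inhibitor of metalloproteinases, 70.4-fold, and Fyb, an adaptor of integrin activation, 12.9-fold. Hsd11b1, which regenerates active glucocorticoid, was 238-fold higher, and Chdh, a mitochondrial choline dehydrogenase, 196-fold. Ccdc162 was not counted in cDC1 KO and was at least 312-fold higher in pDC KO, taking 3 counts over the cDC1 KO group as the floor.

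A few genes best known from striated muscle were among those high in pDC KO. This grouping was made after their values were seen and has no test of its own. Pgam2, the muscle form of phosphoglycerate mutase, stood at 50.2, 60.8 and 90.7 CPM in pDC KO and 0 and 0 CPM in cDC1 KO, at least 317-fold higher by the same floor. Myh13, a myosin heavy chain of eye muscles, stood at 84.1, 137 and 126 CPM in pDC KO and 0.262 and 0 CPM in cDC1 KO (adjusted p = 2.66e-07). Cox6a2, the heart and muscle form of a cytochrome c oxidase subunit, stood at 1108, 1161 and 833 CPM in pDC KO and 33 and 33.7 CPM in cDC1 KO (31-fold, log2 4.95 ± 0.53, adjusted p = 2.71e-06). Pgam2 and Myh13 were thus at or near 0 in cDC1 KO, while both cDC1 KO libraries held Cox6a2 at a low level. Its ubiquitous counterpart Cox6a1 did not pass the test, at 188, 178 and 106 CPM in pDC KO and 189.6 and 256 CPM in cDC1 KO (adjusted p = 0.267). In WT, all 3 were also called higher in pDC, with Pgam2 at 22.4, 49.4 and 26.3 CPM in pDC WT and 0 and 0 CPM in cDC1 WT and Myh13 at 129, 244 and 183 CPM in pDC WT and 0 and 0 CPM in cDC1 WT.

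On the cDC1 side, the surface and effector genes were low in pDC KO. Of 37 tested, none rose and 29 fell, with a median log2 difference of -4.06 (1 higher and 29 lower without pDC KO 3, and 1 higher and 29 lower with DESeq2, 1 higher and 32 lower with limma voom, and 1 higher and 28 lower with the offsets). Naaa fell 71.9-fold (log2 -6.17 ± 0.35, adjusted p = 4.88e-09). Xcr1, the receptor that draws cDC1 to XCL1 from thymic epithelium and T cells, stood at 862 and 401 CPM in cDC1 KO and 2.1, 2.36 and 3.68 CPM in pDC KO (233-fold, log2 -7.87 ± 0.73, adjusted p = 1.24e-06). Wdfy4, required for cross-presentation of cell-bound antigen, stood at 692 and 684 CPM in cDC1 KO and 45.3, 51 and 51.1 CPM in pDC KO (14-fold, adjusted p = 2e-08). The libraries did not overlap for any of the 3, and for Xcr1 the 2 cDC1 KO libraries differed from each other by more than they did for Wdfy4. Clec9a, the receptor for exposed actin of dead cells, stood at 253 and 186 CPM in cDC1 KO and 43.3, 67.1 and 109 CPM in pDC KO (3.01-fold, adjusted p = 0.00884). That call was lost without cDC1 KO 1 (adjusted p = 0.109), and Clec9a shares its strand and part of its span with Clec1b. Itgae, the CD103 integrin chain, fell 36.7-fold, Fgl2, a fibrinogen-like prothrombinase, 46-fold, and Ifi205, an interferon-inducible gene of the AIM2 family, 96-fold. Rab7b, a small GTPase of late endosomes, fell 63.6-fold, and Cst3, or cystatin C, an inhibitor of cathepsins, fell 11.2-fold. Cadm1, an adhesion molecule used to mark cDC1, did not pass the test, at 593 and 674 CPM in cDC1 KO and 890.4, 861 and 701 CPM in pDC KO (log2 0.37 ± 0.80, adjusted p = 0.8). These KO values did not overlap. The standard error rests on the spread in all 6 groups, among which Cadm1 was uneven in pDC WT, and not on the KO libraries alone.

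Among the genes with the smallest p-values on the cDC1 side were signalling and metabolic genes. Prkar2a, a regulatory subunit of protein kinase A, stood at 397 and 542 CPM in cDC1 KO and 19.2, 13.7 and 11 CPM in pDC KO (31.9-fold, log2 -5.00 ± 0.31, adjusted p = 9.18e-09). Gatm, the first enzyme of creatine synthesis, stood at 569 and 513 CPM in cDC1 KO and 1.95, 7.5 and 5.95 CPM in pDC KO (105-fold, adjusted p = 3.07e-08). Sept3, a septin, fell 32.4-fold, Plbd1, a phospholipase B-like protein, 68-fold, and Pak1, a kinase downstream of RAC and CDC42, 28-fold. Tgfbi, a secreted matrix protein, fell 83.5-fold. Fam149a was not counted in pDC KO and was at least 491-fold lower there, with 3 counts over the pDC KO group as the floor.

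The nucleic acid sensors were divided between the subsets. Tlr7, the endosomal receptor for single-stranded RNA, stood at 172, 164 and 219.6 CPM in pDC KO and 2.22 and 1.02 CPM in cDC1 KO (112-fold, log2 6.81 ± 0.63, adjusted p = 5.55e-07). Tlr9, the receptor for unmethylated CpG DNA, stood at 589, 912 and 964 CPM in pDC KO and 194 and 207 CPM in cDC1 KO (4.09-fold, log2 2.03 ± 0.31, adjusted p = 0.000102). Tlr3, the receptor for double-stranded RNA, stood at 82.7 and 78.8 CPM in cDC1 KO and 0.9, 1.53 and 0.175 CPM in pDC KO (87.9-fold lower, log2 -6.46 ± 1.00, adjusted p = 0.000239). Tlr7 was thus nearly absent from cDC1 KO, Tlr3 nearly absent from pDC KO, and Tlr9 present in both and higher in pDC KO. Tlr11, the profilin receptor, stood at 90 and 76.4 CPM in cDC1 KO and 0, 0 and 1.93 CPM in pDC KO (log2 -7.11 ± 0.84, adjusted p = 2.31e-05, and -12.21 without pDC KO 3, the only pDC KO library that held counts of it). Pld4, an endolysosomal exonuclease that limits TLR9 ligands, rose 4.37-fold. In all, 6 of the 30 tested Toll-like receptors and their adaptors rose and 5 fell, with a median of -0.12 near that of all genes, whose sign turned with the offsets.

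Among 9 interferon regulatory factors, 2 rose and 1 fell. Irf8 was 2.13-fold higher in pDC KO (log2 1.09 ± 0.34, adjusted p = 0.0257), without overlap, but the call was lost when any of 3 libraries was left out (adjusted p = 0.0915 without cDC1 KO 1, 0.181 without cDC1 KO 2 and 0.0901 without pDC KO 2). Irf1 rose 2.89-fold (adjusted p = 0.00946), a call lost without cDC1 KO 1 (adjusted p = 0.107). Irf5, which acts downstream of Toll-like receptors, fell 3.2-fold, from 157 and 191 CPM in cDC1 KO to 61, 56.5 and 45.4 CPM in pDC KO (adjusted p = 0.000151). The counts of the family became 0 higher and 1 lower without cDC1 KO 1, 1 higher and 1 lower without cDC1 KO 2, and 1 higher and 1 lower without pDC KO 2, and 2 higher and 2 lower with limma voom.

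Genes of the type I interferon response went both ways, 6 higher and 7 lower of 36 tested. Besides Bst2, the receptor chain Ifnar2 was higher, at 316, 570.4 and 628 CPM in pDC KO and 89.2 and 102 CPM in cDC1 KO (5.28-fold, adjusted p = 0.000332). Isg15, a ubiquitin-like modifier, stood at 89.1 and 118 CPM in cDC1 KO and 34.5, 48.9 and 17.5 CPM in pDC KO (3.07-fold lower, adjusted p = 0.00226). Ifitm2, an antiviral membrane protein, fell 14.9-fold. Ifih1, the MDA5 sensor, fell 3.16-fold and Xaf1 fell 2.39-fold, calls lost without cDC1 KO 1 for Ifih1 (adjusted p = 0.12) and without cDC1 KO 2 for Xaf1 (adjusted p = 0.127). The list as a whole gave 3 higher and 3 lower without cDC1 KO 1, 1 higher and 5 lower without cDC1 KO 2, and 2 higher and 9 lower without pDC KO 2, and the sign of its median, -0.10, turned with the offsets.

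**Figure D3:**
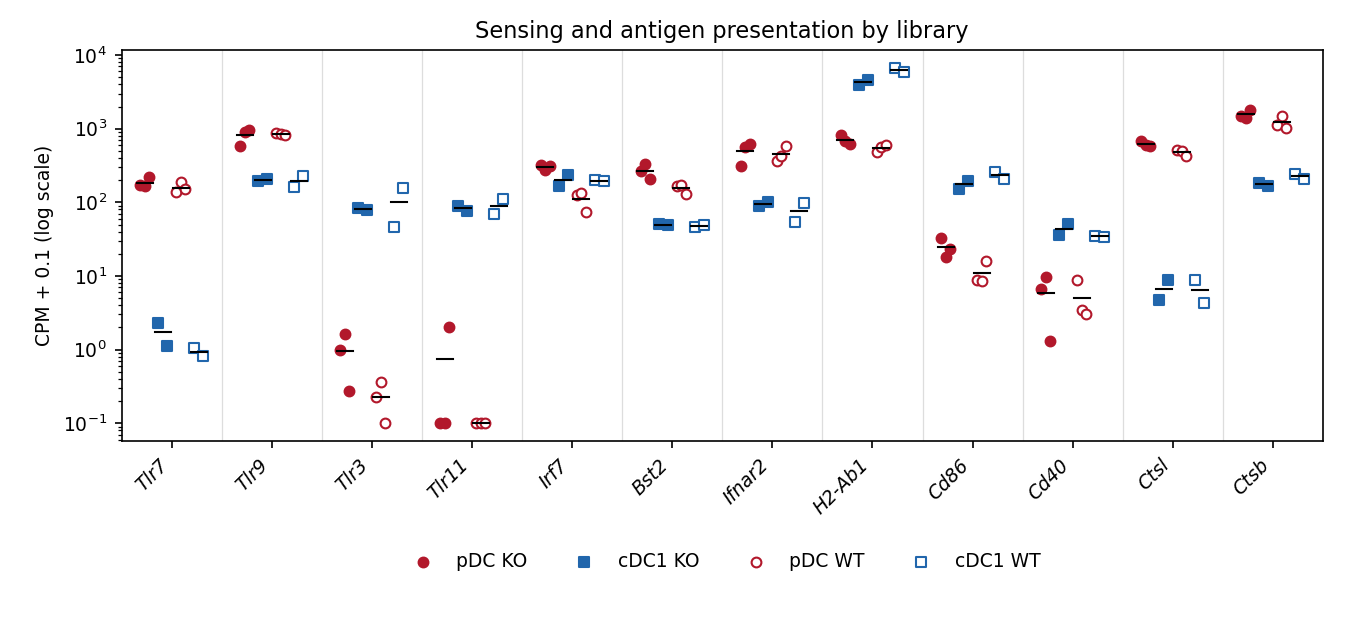
CPM plus 0.1 on a log scale for 12 genes of nucleic acid sensing, interferon and antigen presentation, 1 symbol per library, filled for KO and open for WT, circles for pDC and squares for cDC1, with black bars at group means. Tlr7, Tlr9, Ctsl and Ctsb lie higher in every pDC library, and Tlr3, Tlr11, H2-Ab1 and Cd86 higher in every cDC1 library.

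Of 16 genes of MHC class II presentation, 9 were lower in pDC KO and 1 was higher, with a median of -1.80. The gate selected cDC1 on class II protein, so the 3 lower genes of the class II molecule itself, H2-Aa, H2-Ab1 and H2-Eb1, are no finding. Of the other 13 members, 6 fell and 1 rose, with a median of -0.75, and 5 fell and 2 rose with the offsets, with a median of -0.42. Among the 6 were H2-DMb1, H2-Ob and Cd74, the invariant chain. H2-Ab1, a chain of the class II molecule, stood at 3943 and 4588 CPM in cDC1 KO and 815, 686 and 628 CPM in pDC KO (6.01-fold, log2 -2.59 ± 0.24, adjusted p = 4.73e-07). H2-DMb1, of the molecule that loads peptides, fell 5.25-fold, and H2-Ob, of its inhibitor, 33.2-fold. The gene that rose was Ctsl, the cathepsin that processes the invariant chain in thymic epithelium, at 672, 592 and 585 CPM in pDC KO and 4.58 and 8.6 CPM in cDC1 KO (93.6-fold, log2 6.55 ± 0.46, adjusted p = 3.07e-08). Ctsl was near 0 in both cDC1 KO libraries and high in each pDC KO library.

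Class I presentation was called about as often as genes in general, with 2 higher and 3 lower of 20 against 21.5% of all genes. Psmb9, an immunoproteasome subunit, fell from 219.8 and 309 CPM in cDC1 KO to 101, 90.8 and 106 CPM in pDC KO (2.66-fold, adjusted p = 0.00176). B2m and H2-K1, the light and a heavy chain, were 2.07-fold and 2.14-fold higher. The call of B2m was lost at an adjusted p of 0.0689 without cDC1 KO 1, 0.166 without cDC1 KO 2 and 0.111 without pDC KO 2, and that of H2-K1 at 0.142 without cDC1 KO 1, 0.19 without cDC1 KO 2, 0.0625 without pDC KO 1 and 0.119 without pDC KO 3. Pdia3, a chaperone of peptide loading, fell 2.86-fold, lost at 0.216 without cDC1 KO 2, 0.0618 without pDC KO 2 and 0.0556 without pDC KO 3, and Psmb8, another immunoproteasome subunit, fell 1.85-fold, lost at 0.126 without cDC1 KO 1, 0.129 without cDC1 KO 2, 0.0572 without pDC KO 1 and 0.089 without pDC KO 2. The list then counted 0 higher and 2 lower without cDC1 KO 1, 0 higher and 1 lower without cDC1 KO 2, 1 higher and 3 lower without pDC KO 1, 1 higher and 1 lower without pDC KO 2, and 1 higher and 2 lower without pDC KO 3. It counted 3 higher and 5 lower with limma voom.

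Costimulatory and maturation genes were more often lower than higher in pDC KO, 14 against 1 of 28, and a median of -1.51. Cd86, a ligand of CD28, stood at 154 and 197 CPM in cDC1 KO and 32.5, 18.1 and 23.3 CPM in pDC KO (7.12-fold, log2 -2.83 ± 0.34, adjusted p = 8.27e-06). Cd40, through which T cells license dendritic cells, stood at 36 and 50.3 CPM in cDC1 KO and 6.6, 9.58 and 1.23 CPM in pDC KO (7.33-fold, adjusted p = 0.000789). Il15, a survival cytokine for T and NK cells, fell 6.38-fold, and Marcks, an actin-linked substrate of protein kinase C, 3.13-fold. The member that rose was Cd200, an inhibitory ligand, at 78.4, 80.8 and 80.2 CPM in pDC KO and 23.8 and 18.4 CPM in cDC1 KO (3.78-fold, adjusted p = 0.000749). The list counted 1 higher and 9 lower without cDC1 KO 1, and 1 higher and 8 lower without cDC1 KO 2.

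Chemokines and the receptors listed with them went both ways between the subsets. The chemokine receptor genes Ccr9, higher in pDC KO, and Xcr1, higher in cDC1 KO, are given above. S1pr4, a receptor for sphingosine 1-phosphate and not for a chemokine, stood at 32.5, 45.4 and 47.6 CPM in pDC KO and 5.49 and 3.06 CPM in cDC1 KO (9.71-fold higher, log2 3.28 ± 0.44, adjusted p = 2.96e-05). Ccl4, an inflammatory chemokine, was 12.3-fold higher. Cxcl10, a ligand of CXCR3, fell 8.08-fold. Cxcl9, another such ligand, fell from 329 and 366 CPM in cDC1 KO to 7.5, 2.92 and 2.28 CPM in pDC KO (81.4-fold, adjusted p = 0.000573). Over the 25 tested genes, 6 rose and 4 fell (8 higher and 8 lower with no filter on low counts).

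Receptors for cytokines and growth factors gave 11 higher and 6 lower of 30. Il7r, the receptor of a lymphoid growth factor, stood at 365, 401 and 412 CPM in pDC KO and 23.3 and 19.8 CPM in cDC1 KO (18.2-fold, log2 4.19 ± 0.37, adjusted p = 2.96e-07). Lifr, the receptor of leukaemia inhibitory factor, was 11.6-fold higher, Csf2rb2, a mouse IL-3 receptor chain, 5.21-fold, and Ifnar1, the other interferon receptor chain, 2.92-fold. Kit, the stem cell factor receptor, stood at 123 and 87.4 CPM in cDC1 KO and 17.1, 22.5 and 8.23 CPM in pDC KO (6.57-fold lower, adjusted p = 5.28e-05). Ifngr1, a chain of the interferon gamma receptor, fell 13.3-fold and Csf1r 16.4-fold. Both type I interferon receptor chains were therefore higher in pDC KO while Ifngr1 was higher in cDC1 KO. Flt3, the receptor of the cytokine given to all mice, did not pass the test, at 122, 138 and 147 CPM in pDC KO and 234 and 209 CPM in cDC1 KO (log2 -0.71 ± 0.26, adjusted p = 0.0615).

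Among integrins and adhesion molecules 10 rose and 7 fell of 29 tested. Cdh1, or E-cadherin, stood at 225, 216 and 260.2 CPM in pDC KO and 14.9 and 19.3 CPM in cDC1 KO (13.7-fold, adjusted p = 6.29e-07). Itgam, the CD11b integrin chain, stood at 65.4, 68.7 and 63.4 CPM in pDC KO and 13.1 and 9.92 CPM in cDC1 KO (5.71-fold, log2 2.51 ± 0.42, adjusted p = 0.000283). Cd9, a tetraspanin, stood at 102 and 145 CPM in cDC1 KO and 3.9, 3.33 and 4.55 CPM in pDC KO (31.3-fold lower, log2 -4.97 ± 0.35, adjusted p = 3.07e-08). Pecam1 rose 6.83-fold, Itgb3 rose 8.23-fold, and Cd81, another tetraspanin, fell 42.5-fold.

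Immunoglobulin-like and lectin receptors counted 10 higher and 7 lower of 33. The adaptors that carry activating signals for such receptors were high in pDC KO, Tyrobp (DAP12), the partner of Siglec-H, at 1769.6, 1617 and 1478 CPM in pDC KO and 233 and 245 CPM in cDC1 KO (6.78-fold, adjusted p = 7.98e-07) and Fcer1g at 274, 372 and 300.3 CPM in pDC KO and 50 and 70.3 CPM in cDC1 KO (5.25-fold, adjusted p = 1.67e-05). Cd300lf, an inhibitory CD300 receptor, was 42.6-fold higher, Sirpa, the inhibitory receptor for CD47, 9-fold, and Clec10a, a galactose-type lectin, 14.1-fold. Lower in pDC KO was Havcr2 (TIM-3), from 221 and 301 CPM in cDC1 KO to 15.1, 21.1 and 35.7 CPM (10.9-fold, adjusted p = 2.07e-06). The counts became 9 higher and 2 lower without cDC1 KO 1, 10 higher and 3 lower without cDC1 KO 2, and 10 higher and 4 lower without pDC KO 2, and 11 higher and 3 lower with a fit of only the 2 groups. Siglech, a sort gene, is 1 of the 10 higher members.

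Genes of the LKB1 pathway itself were called about as often as genes in general. Of 25 tested members, 3 rose and 2 fell, against 21.5% of all genes called. Hdac5, a class IIa histone deacetylase that salt-inducible kinases phosphorylate, stood at 73.3, 59 and 55 CPM in pDC KO and 17.3 and 19.3 CPM in cDC1 KO (3.42-fold, adjusted p = 0.000514), and Prkag2, a regulatory subunit of AMPK, at 31.9, 46.5 and 67.1 CPM in pDC KO and 14.7 and 14.9 CPM in cDC1 KO (3.28-fold, adjusted p = 0.00315). Nuak2, a kinase that LKB1 activates, stood at 67.8 and 95.2 CPM in cDC1 KO and 17.8, 20 and 11.9 CPM in pDC KO (4.9-fold lower, adjusted p = 0.000604). Sik1, a salt-inducible kinase, rose 3.15-fold (adjusted p = 0.00446), a call lost without cDC1 KO 2 (adjusted p = 0.0537). Mark2, a microtubule affinity kinase, fell 2.35-fold, a call lost at adjusted p of 0.228 without cDC1 KO 1, 0.0615 without cDC1 KO 2, 0.0705 without pDC KO 2 and 0.0884 without pDC KO 3. The list counted 3 higher and 1 lower without cDC1 KO 1, 2 higher and 1 lower without cDC1 KO 2, 3 higher and 1 lower without pDC KO 2, and 3 higher and 1 lower without pDC KO 3; 3 higher and 1 lower with the offsets.

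Of 26 genes of the mTOR pathway, 4 rose and 3 fell, near the 21.5% of all tested genes that were called. Deptor, an inhibitor within the mTOR complexes, stood at 23.2 and 11.2 CPM in cDC1 KO and 0.9, 3.33 and 0.175 CPM in pDC KO (11.2-fold lower, adjusted p = 0.000626). Eif4ebp1, the translation repressor that mTORC1 phosphorylates, fell 6.84-fold, and Rps6ka1, a ribosomal S6 kinase of the ERK pathway, rose 5.53-fold. Flcn, or folliculin, rose 3.35-fold, a call lost without cDC1 KO 1 (adjusted p = 0.128). The counts became 1 higher and 2 lower without cDC1 KO 1, 2 higher and 2 lower without cDC1 KO 2, and 2 higher and 2 lower without pDC KO 3.

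Phospholipase C and calcium signalling held calls in both directions, 11 higher and 5 lower of 32 (6 higher and 5 lower without cDC1 KO 2). Prkca, protein kinase C alpha, stood at 276, 355 and 648 CPM in pDC KO and 3.53 and 3.21 CPM in cDC1 KO (126-fold, log2 6.97 ± 0.66, adjusted p = 6.29e-07). Cacna1e, a voltage-gated calcium channel subunit, stood at 266, 365 and 337 CPM in pDC KO and 42.6 and 32.4 CPM in cDC1 KO (8.59-fold, adjusted p = 2.46e-05). Atp2b4, a plasma membrane calcium pump, rose 14.8-fold, whereas its paralogue Atp2b1 fell 3.48-fold. Plcb1, a phospholipase C that G proteins activate, stood at 45.9, 72.8 and 45.9 CPM in pDC KO and 6.67 and 6.27 CPM in cDC1 KO (8.46-fold, log2 3.08 ± 0.53, adjusted p = 0.000573), while it was not counted in any WT library of either subset. Plcb4, of the same family, did not pass the test in KO, at 67.5, 166 and 244 CPM in pDC KO and 129 and 104 CPM in cDC1 KO (adjusted p = 0.518).

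Glycolytic genes were more often lower than higher in pDC KO, 9 against 3 of 27, with a median of -0.70 (1 higher and 7 lower without cDC1 KO 2). Ldha, lactate dehydrogenase A, stood at 253 and 282 CPM in cDC1 KO and 85.3, 73.9 and 61.6 CPM in pDC KO (3.63-fold, log2 -1.86 ± 0.28, adjusted p = 0.00011). Hk2, the inducible hexokinase, stood at 178 and 179 CPM in cDC1 KO and 44.8, 20.7 and 16.8 CPM in pDC KO (6.48-fold, adjusted p = 0.000186). Tpi1 fell 4.91-fold and Pfkp, the platelet form of phosphofructokinase, 4.42-fold. Hk3 was not counted in pDC KO and was at least 65.1-fold lower by the floor of 3 counts. Slc2a6, a lysosomal member of the glucose transporter family, rose 4.14-fold.

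Oxidative phosphorylation held few calls. None of 50 genes rose and 4 fell, with a median of -0.30 that became 0.06 with the offsets. The counts were 0 higher and 2 lower with RLE scaling and the stricter filter, 0 higher and 7 lower with limma voom, and 2 higher and 1 lower with the offsets, so that the balance of calls turned with the offsets. Leaving out a library gave 0 higher and 0 lower without cDC1 KO 1, 0 higher and 2 lower without cDC1 KO 2, 0 higher and 2 lower without pDC KO 2, and 0 higher and 1 lower without pDC KO 3. Cycs, or cytochrome c, fell from 38.2 and 35.1 CPM in cDC1 KO to 10, 8.33 and 11.6 CPM (3.68-fold, adjusted p = 0.00925), a call lost without cDC1 KO 1 (adjusted p = 0.0657). In fatty acid oxidation 1 gene of 20 rose and 3 fell (0 higher and 1 lower without cDC1 KO 1, 0 higher and 1 lower without cDC1 KO 2, and 0 higher and 1 lower without pDC KO 3; 2 higher and 5 lower with limma voom, and 1 higher and 1 lower with the offsets). That is near the 21.5% of all tested genes that were called. Slc25a20, the carnitine carrier of mitochondria, stood at 84.4 and 126 CPM in cDC1 KO and 38.5, 20.4 and 14.2 CPM in pDC KO (4.31-fold lower, adjusted p = 0.000516).

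Cholesterol and fatty acid synthesis gave 5 higher and 3 lower of 36 (2 higher and 1 lower without cDC1 KO 1, 2 higher and 1 lower without cDC1 KO 2, 2 higher and 2 lower without pDC KO 1, 3 higher and 1 lower without pDC KO 2, and 3 higher and 2 lower without pDC KO 3; 8 higher and 5 lower with limma voom). The list was thus called about as often as genes in general, 21.5% of which were called. Fads2, a fatty acid desaturase, stood at 117, 127 and 75.5 CPM in pDC KO and 9.55 and 10.9 CPM in cDC1 KO (10.4-fold, log2 3.38 ± 0.42, adjusted p = 1.14e-05). Fasn, fatty acid synthase, stood at 38.5 and 37.6 CPM in cDC1 KO and 5.85, 10.3 and 10.3 CPM in pDC KO (4.31-fold lower, adjusted p = 0.000833). Scap, the escort of sterol-regulated factors, rose 2.69-fold, a call lost without cDC1 KO 1 (adjusted p = 0.0537).

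In the secretory pathway and unfolded protein response, 7 of 46 rose and 2 fell, near the 21.5% of all tested genes that were called. Xbp1, the factor of secretory cells, stood at 415, 286 and 527 CPM in pDC KO and 77.3 and 64.2 CPM in cDC1 KO (5.79-fold, log2 2.53 ± 0.33, adjusted p = 1.88e-05), and Ern1, the IRE1 sensor that splices its RNA, at 69.3, 45.5 and 75.3 CPM in pDC KO and 14.8 and 18.5 CPM in cDC1 KO (3.8-fold, adjusted p = 0.00174). Edem2, of the degradation pathway for misfolded proteins, rose 2.62-fold, and Tram1, a translocon protein, 2.57-fold, the latter call lost without cDC1 KO 1 (adjusted p = 0.0627). Sdf2l1, a chaperone cofactor, fell 3.03-fold. The list gave 3 higher and 2 lower without cDC1 KO 1, 4 higher and 1 lower without cDC1 KO 2, 6 higher and 1 lower without pDC KO 2, and 8 higher and 1 lower without pDC KO 3. It gave 12 higher and 2 lower with DESeq2 and limma voom, 11 higher and 2 lower with the stricter filter, and 14 higher and 2 lower with the offsets.

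Lysosomal genes were more often higher than lower in pDC KO, 10 against 3 of 39, with a median of 0.38. Ctsb, cathepsin B, stood at 1507, 1393 and 1794 CPM in pDC KO and 185 and 169 CPM in cDC1 KO (8.84-fold, log2 3.14 ± 0.29, adjusted p = 5.55e-07). Npc1, the cholesterol exporter of lysosomes, stood at 688, 865 and 1352 CPM in pDC KO and 76 and 79 CPM in cDC1 KO (12.5-fold, adjusted p = 3e-06). Grn, or progranulin, was 5.52-fold higher and Ctsh, cathepsin H, 4.12-fold. Gusb, beta-glucuronidase, stood at 367 and 289 CPM in cDC1 KO and 39.6, 59.1 and 54.8 CPM in pDC KO (6.41-fold lower, adjusted p = 4.51e-06).

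Cell cycle genes were lower in pDC KO. Of 40 tested, 30 fell in pDC KO and 2 rose, with a median of -2.25 (1 higher and 23 lower without cDC1 KO 2). Top2a, the topoisomerase of replicating cells, stood at 383 and 572 CPM in cDC1 KO and 97.3, 105 and 90.9 CPM in pDC KO (4.89-fold, log2 -2.29 ± 0.30, adjusted p = 1.84e-05). Mcm5, of the replicative helicase, stood at 50.6 and 79.3 CPM in cDC1 KO and 6.3, 7.22 and 2.63 CPM in pDC KO (11.9-fold, adjusted p = 3.66e-06). Cenpe, a kinetochore motor, fell 6.83-fold, and Ccna2, or cyclin A2, 14.4-fold. One of the genes that rose was Ccnd2, or cyclin D2, at 446, 475 and 616 CPM in pDC KO and 111 and 108 CPM in cDC1 KO (4.68-fold, adjusted p = 0.000126).

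Genes shared with lymphoid precursors were higher in pDC KO where they differed. Of 12 tested, 5 rose and none fell, with a median of 1.87. Blnk, the adaptor of the B cell receptor, stood at 378, 319 and 325 CPM in pDC KO and 3.53 and 9.04 CPM in cDC1 KO (54.3-fold, log2 5.76 ± 0.46, adjusted p = 9.79e-08). Dntt, the terminal transferase of V(D)J joining, stood at 81.7, 95.4 and 79.9 CPM in pDC KO and 6.93 and 5.25 CPM in cDC1 KO (14-fold, adjusted p = 4.37e-05). Cd7 rose 6.17-fold and Cd79b 8.03-fold. Blk, a B lineage kinase, stood at 2.25, 6.25 and 8.23 CPM in pDC KO and 0.131 and 0.292 CPM in cDC1 KO (adjusted p = 0.0109), a call lost at adjusted p of 0.121 without cDC1 KO 1 and 0.0764 without cDC1 KO 2.

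The cytoskeleton list was more often lower than higher in pDC KO, 16 against 3 of 39, with a median of -0.85 (3 higher and 9 lower without cDC1 KO 1, and 5 higher and 20 lower with limma voom). Vim, or vimentin, stood at 2951 and 2285 CPM in cDC1 KO and 586, 438 and 326 CPM in pDC KO (5.81-fold, log2 -2.54 ± 0.36, adjusted p = 5.42e-05), and Flna, filamin A, fell 5.98-fold. Actb, by whose qPCR level the samples were pooled, stood at 29454 and 34415 CPM in cDC1 KO and 13066, 12362 and 7586 CPM in pDC KO (2.9-fold lower, adjusted p = 0.000676). Rac2, the haematopoietic RAC GTPase, stood at 565, 569.8 and 593 CPM in pDC KO and 73.5 and 88.5 CPM in cDC1 KO (7.11-fold higher, adjusted p = 2.84e-06). Capg, an actin-capping protein, rose 9.88-fold.

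Immediate early and stress genes, which respond to stimuli that include tissue dissociation, counted 10 lower and none higher of 31, with a median of -1.16. Nr4a2, an orphan nuclear receptor, stood at 592 and 927 CPM in cDC1 KO and 65.2, 50.1 and 28.9 CPM in pDC KO (15.8-fold, log2 -3.98 ± 0.52, adjusted p = 2.45e-05). Atf3 stood at 1011 and 1024 CPM in cDC1 KO and 206, 54.6 and 31.9 CPM in pDC KO (10.4-fold, adjusted p = 0.00185) and was uneven over the pDC KO libraries, as was Hspa1b, a heat shock gene, at 282 and 371 CPM in cDC1 KO and 85.9, 30.4 and 6.3 CPM in pDC KO (7.97-fold, adjusted p = 0.00688). Egr3, an early growth response factor, fell 38.8-fold. The counts became 0 higher and 6 lower without cDC1 KO 1, 0 higher and 6 lower without cDC1 KO 2, and 0 higher and 5 lower without pDC KO 2, and they were 1 higher and 16 lower with no filter on low counts, and 1 higher and 6 lower with the offsets. Whether the handling of the tissue has a part in these differences was not tested.

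Of 78 cytosolic ribosomal protein genes, 20 fell and none rose, with a median of -0.63 that became -0.21 with the offsets. The counts were 1 higher and 30 lower with limma voom, and 1 higher and 4 lower with the offsets. They were 0 higher and 5 lower without cDC1 KO 1, 0 higher and 5 lower without cDC1 KO 2, 0 higher and 12 lower without pDC KO 1, 0 higher and 11 lower without pDC KO 2, and 0 higher and 9 lower without pDC KO 3. Rps28 fell from 434 and 456 CPM in cDC1 KO to 147, 200.2 and 82.7 CPM (3.1-fold, adjusted p = 0.00114) and Rps27a 2.27-fold. Several of these genes have near-identical copies elsewhere, so that their counts are uncertain. Over all tested genes 21.5% were called, which is the background for the apoptosis list that follows. In the apoptosis list 4 of 27 fell and none rose (0 higher and 1 lower without cDC1 KO 1, 0 higher and 1 lower without cDC1 KO 2, and 0 higher and 2 lower without pDC KO 2, and further 1 higher and 6 lower with limma voom, 2 higher and 5 lower with no filter on low counts, and 0 higher and 2 lower with a fit of only the 2 groups), with Casp6, an executioner caspase, 3.27-fold lower (adjusted p = 0.00558).

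**Figure D4:**
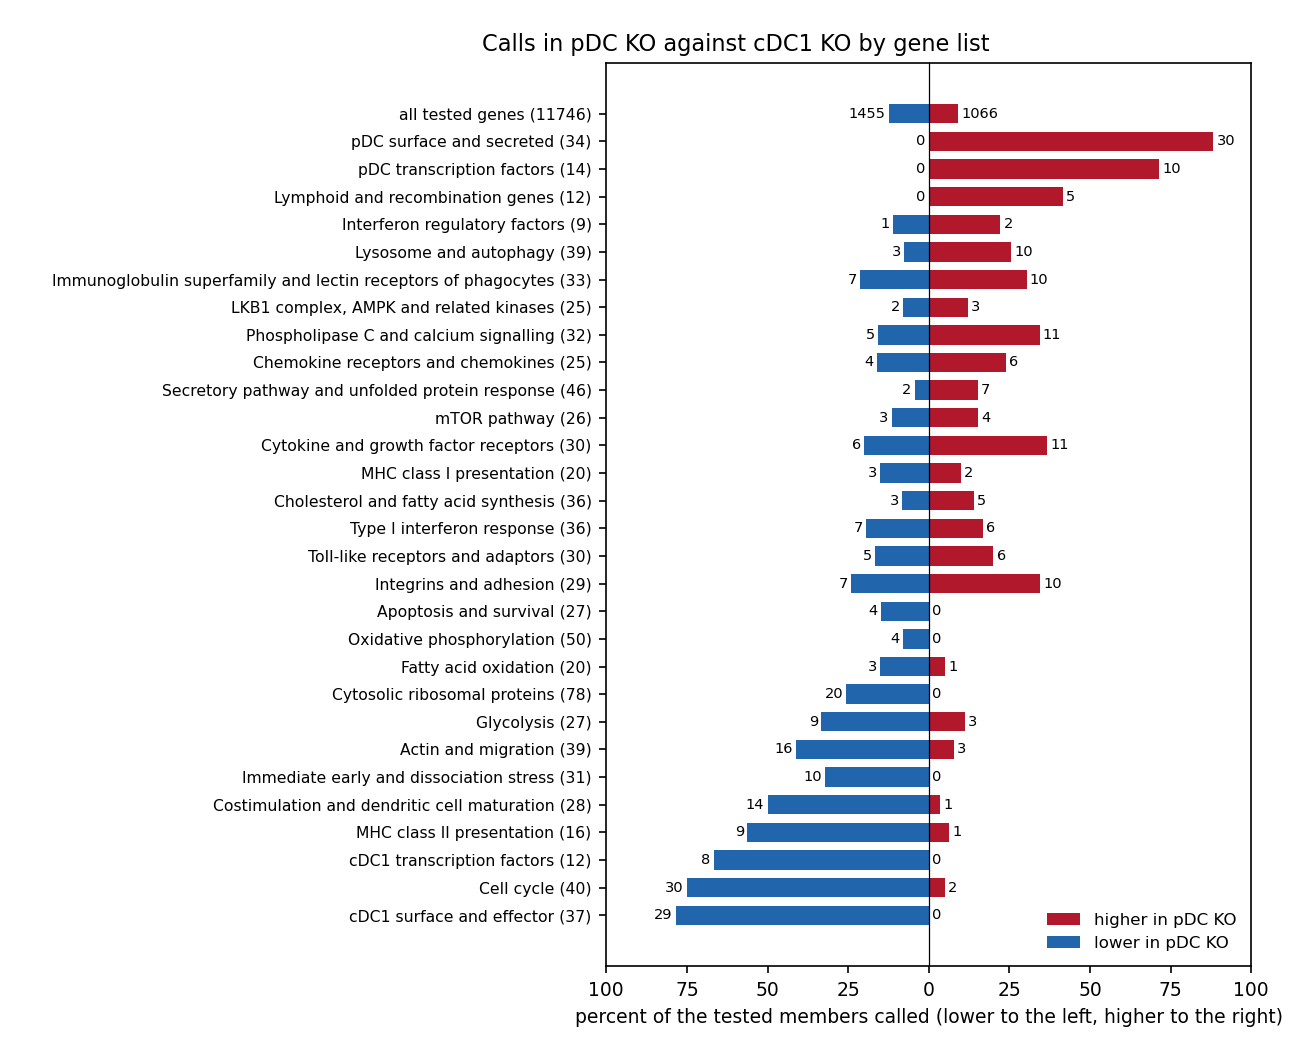
For each gene list, the percent of its tested members (number in brackets) called higher in pDC KO to the right in red and lower to the left in blue, with the count of members at the bar's end, ordered by median log2 difference below the bar for all 11746 tested genes. The pDC and cDC1 lists and the cell cycle list hold the largest shares called in 1 direction, and the LKB1, mTOR and cholesterol lists lie near the share of all genes.

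Markers of cells that the gates could also have let through were summed in each library. Of 12 B and plasma cell markers in the table, 3 were at 0 in pDC KO, and their summed level was 117 to 130 CPM in pDC KO and 23.3 to 27.7 CPM in cDC1 KO, most of it Mzb1, an endoplasmic reticulum protein that pDC also express, at 103, 105 and 94.2 CPM in pDC KO and 0 and 1.31 CPM in cDC1 KO (log2 7.28 ± 0.72, and 12.47 without cDC1 KO 2, which leaves the cDC1 group at 0). Summed markers of thymocytes and T cells stood at 537 to 626 CPM in pDC KO and 270 to 395 CPM in cDC1 KO, with Cd3e at 5.85, 0 and 1.05 CPM in pDC KO and 7.33 and 4.08 CPM in cDC1 KO. Cd8b1, one of those markers, was 15.4-fold higher in pDC KO, at 182, 189 and 238 CPM in pDC KO and 16.2 and 10.1 CPM in cDC1 KO (adjusted p = 3.7e-06). Summed NK cell markers stood at 171 to 287 CPM in pDC KO, where 7 of 15 were at 0 and Klrd1 held most of the sum, and 236 to 243 CPM in cDC1 KO. By member, 1 of 13 tested NK cell markers was called higher in pDC KO and 5 were called lower. Their median log2 difference was -2.50, or -2.19 with groups at 0 set to the floor of 3 counts. Monocyte and neutrophil markers stood at 2531 to 3575 CPM in pDC KO, 5 of 16 at 0, and 728 to 768 CPM in cDC1 KO, mostly from Plac8 and Ly6c2, which pDC are known to express. Macrophage markers stood at 191 to 199 CPM and 108 to 120 CPM, and those of type 2 conventional dendritic cells at 2969 to 3969 CPM and 2255 to 2507 CPM, mostly from Klf4. Epithelial and stromal markers summed to 200 to 240 CPM in pDC KO, 11 of 17 at 0, and 37.6 to 42.4 CPM in cDC1 KO, carried by Pecam1 and by Cdh5 at 69.4, 71.4 and 53.6 CPM in pDC KO and 0.392 and 1.17 CPM in cDC1 KO. Melanoma markers summed to 2.98 to 7.20 CPM in pDC KO, with 7 of 9 at 0, and 1.90 to 4.32 CPM in cDC1 KO. Of 8 tested B and plasma cell markers, 2 were called higher in pDC KO and 2 lower. The counts were 2 higher and 1 lower of 17 for thymocytes and T cells, and 2 and 1 of 10 for monocytes and neutrophils. They were 2 and 2 of 13 for macrophages, 4 and 6 of 20 for type 2 conventional dendritic cells, and 2 and 1 of 5 for epithelium and stroma. The part of such cells in the results was not tested.

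The same subset difference was measured in the WT libraries, which share no library with the KO comparison. There 3253 genes (27.7%) passed, 1509 (12.8%) higher in pDC WT and 1744 (14.8%) lower. Of the 2521 genes called in KO, 1844 were called in WT too, 1839 of them in the same direction, which is 73.0% of the KO calls and 56.5% of the WT calls. Counting sign alone, 2419 of the 2521 had the same sign in WT. The share of all tested genes with the same sign was not counted, so this number has no background beside it. The shared count was 1208 without cDC1 KO 1 and 1164 without cDC1 KO 2. The log2 differences of the 2 genotypes correlated at r = 0.769 over the tested genes and at r = 0.894 over the 3335 genes with a mean of at least 50 CPM, given as a description across genes, which are not independent. The identity lists had close medians in both, 2.75 in KO and 3.03 in WT for the pDC factors, -1.88 and -1.92 for the cDC1 factors, 4.51 and 4.95 for pDC surface genes and -4.06 and -4.44 for cDC1 surface genes.

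No gene passed the test of whether the subset difference differed between KO and WT, that is 0 of 11746 (0.0%) in edgeR, with a smallest adjusted p of 0.110 and 970 genes at an unadjusted p under 0.05. With DESeq2 the count was 19 higher and 72 lower, with limma voom 0 and 16, and without the filter on low counts 27 and 91. The median standard error of this difference was 0.643, against 0.463 for the KO comparison, so that a change has to be larger to be detectable at this depth and number of libraries. Leaving out pDC WT 1 gave 1 gene higher and 1 lower, and leaving out pDC KO 2 gave 1 lower.

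Among the genes nearest to the threshold was Cox6a2. It stood at 448, 431 and 272 CPM in pDC WT and 1.17 and 0 CPM in cDC1 WT beside the KO values above, and the subset difference in KO minus that in WT was -4.51 ± 0.82 on the log2 scale, a value that depends on the near absence of counts in cDC1 WT (unadjusted p = 3.34e-05, adjusted p = 0.11). In these values pDC KO held more than pDC WT and cDC1 KO held a low level where cDC1 WT held next to none. St13, a cochaperone of HSP70, had a log2 difference of -1.47 ± 0.29 in KO and 0.79 ± 0.30 in WT (unadjusted p of the change = 4.95e-05, adjusted 0.11), and Cwc27, a spliceosome cyclophilin, -1.20 ± 0.37 in KO and 2.19 ± 0.42 in WT (unadjusted p = 9.57e-06, adjusted 0.11). The KO call of Cwc27 was lost at adjusted p of 0.204 without cDC1 KO 1, 0.0755 without cDC1 KO 2 and 0.102 without pDC KO 2. Ofd1, a centriolar protein, gave -0.51 ± 0.32 in KO and 2.05 ± 0.36 in WT (unadjusted p = 4.02e-05). In the other direction, Pde8a, a cAMP phosphodiesterase, gave -3.12 ± 0.57 in KO and -7.68 ± 0.77 in WT, and Slc25a4, the adenine nucleotide carrier of muscle and heart, 0.73 ± 0.32 and -1.12 ± 0.31. Kif1a, a kinesin of axonal transport, changed in the direction of Cox6a2 and not in that of Pde8a. It was not counted in pDC KO and was at least 23.5-fold lower there than in cDC1 KO (3.27 and 3.94 CPM). In WT it stood at 2.47, 3.87 and 2.15 CPM in pDC WT and 5.39 and 6.92 CPM in cDC1 WT. None of these passed the correction for the change between genotypes.

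**Figure D5:**
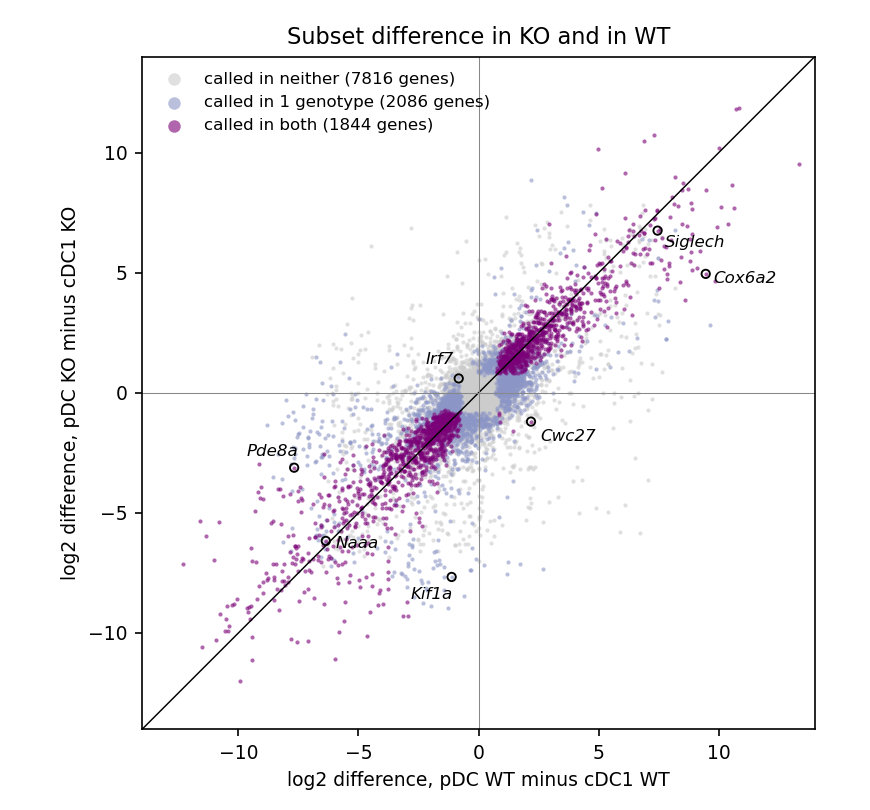
Each point is 1 of the 11746 tested genes, with the log2 difference pDC minus cDC1 in WT on the x axis and in KO on the y axis, and the line marks equal differences. Genes called in both genotypes (1844, purple) lie along the line, and the labelled genes include Cox6a2 below it and Pde8a above it, none of which passed the test of the change.

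Genes called with opposite signs in KO and WT numbered 5, all lower in pDC KO and higher in pDC WT. They were Acap2, Ccdc18, Cwc27, Smc4 and Wdr43, and all but Cwc27 are named here only because their signs differ. Smc4, a condensin subunit, stood at 442, 658 and 678 CPM in pDC KO and 945 and 1177 CPM in cDC1 KO, against 671, 860.2 and 1209 CPM in pDC WT and 472 and 543 CPM in cDC1 WT. Wdr43, a ribosome assembly factor, stood at 359, 371 and 187 CPM in pDC KO and 503 and 651 CPM in cDC1 KO, against 559, 493 and 552 CPM in pDC WT and 293 and 304 CPM in cDC1 WT, and overlaps small nucleolar RNA genes on its strand. Acap2, a GTPase activator of endosomes, gave log2 differences of -1.20 ± 0.28 in KO and 0.89 ± 0.30 in WT, and Ccdc18, a coiled-coil protein, -1.60 ± 0.45 and 1.46 ± 0.49. Their changes between genotypes did not pass the correction, with adjusted p of 0.169 for Smc4, 0.168 for Wdr43, 0.112 for Acap2 and 0.112 for Ccdc18. The KO call was lost for Smc4 without each of the 5 libraries in turn (adjusted p = 0.0999 without cDC1 KO 1, 0.289 without cDC1 KO 2, 0.147 without pDC KO 1, 0.0682 without pDC KO 2 and 0.0516 without pDC KO 3), for Wdr43 at 0.0709 without cDC1 KO 1, 0.257 without cDC1 KO 2 and 0.116 without pDC KO 3, for Acap2 at 0.187 without cDC1 KO 2 and for Ccdc18 at 0.152 without cDC1 KO 2, 0.052 without pDC KO 1 and 0.0582 without pDC KO 3.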

How the data were processed

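Bulk 3' RNA-seq libraries of sorted thymic dendritic cells were made with barcoded oligo-dT primers, pooled by Actb qPCR and amplified for 12 PCR cycles into strand-specific libraries, per the labels' protocols. Reads carried no molecular identifiers, so precision counts reads, not molecules. The authors deposited 1 table of raw counts per gene for 22165 genes and 15 libraries, of which 5860 genes had no counts. STAR, HTSeq and DESeq2 and the build mm10 are listed by the submitters' processing notes, which say neither what each tool did nor with which version or setting. Symbols were taken from the GRCm38 gene table for 21745 genes.

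The counts were fitted with edgeR 4.0.16 in R 4.3.3 (TMM scaling, robust quasi-likelihood test, 6 groups in 1 fit without covariates). The filterByExpr filter kept 11746 genes and left out 0.0538% of counts. Contrasts were pDC minus cDC1 in KO, in WT, and KO minus WT of that difference, with Benjamini-Hochberg adjustment over all tested genes and a threshold of 0.05. Groups came from the title, genotype and subtype labels. Alternatives were other scaling (RLE), DESeq2 1.42.0, limma 3.58.1 voom with quality weights, other filters, thresholds and sample sets, a replicate block, length and GC offsets, and each library left out. The script was tested on simulated data. Tables and figures used Python 3.11.15, pandas 2.3.3, numpy 2.4.6 and matplotlib 3.10.9.

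Genes were named by a rule: of called genes without overlap, up to 15 per direction with the smallest p and 10 with the largest fold (mean of at least 50 CPM), 4 per direction for the change between genotypes, up to 6 per list for KO and 3 for the change, and a set of markers. Bcl11a, Cxcl9, Ifngr1, Ifnar1, Havcr2, Actb, Ccnd2, Cd74, Cd3e, Plac8, Ly6c2, Klf4, Klrd1, Acap2, Ccdc18, Smc4 and Wdr43 were chosen after their values were seen where the rule does not name them. The members and lists were chosen with earlier results of these data known. Libraries of type 2 conventional dendritic cells entered the fit for its filter on low counts, its scaling and its estimate of spread. A fit of only pDC KO and cDC1 KO tested 10817 genes and called 1145 higher and 1141 lower.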

Additional observations from a re-analysis of the deposited data

How the results depend on the processing

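Under the alternatives that kept all libraries, the KO counts stayed within 1.5 times of 1066 higher and 1455 lower except with a required 2-fold difference, which left 514 higher and 635 lower. Leaving out 1 library gave 547 to 1019 higher and 801 to 1336 lower. In WT the 2-fold requirement left 605 higher and 782 lower, and leaving out 1 library gave 741 to 1394 higher and 978 to 1576 lower, the least of both without cDC1 WT 1, with 993 higher without cDC1 WT 2. For the change between genotypes, DESeq2 gave 19 higher and 72 lower, the fit without a filter 27 and 91, and limma voom 16 lower; leaving out 1 library gave 0 to 1 higher and 0 to 1 lower. Calls shared in the same direction numbered 867 with the 2-fold requirement and 1164 to 1780 when 1 library was left out, with 1208 without cDC1 KO 1 and 1164 without cDC1 KO 2. Same-numbered pDC KO and cDC1 KO libraries deviated with correlations of -0.104 and -0.00653, so that the numbers are not shown to pair the libraries; with the replicate block the KO comparison gave 931 higher and 1302 lower. The median of the oxidative phosphorylation list changed sign to 0.0632 with the offsets and to 0.0573 with the offsets and the replicate block. The median of the erythroid markers became -2.22 with the stricter filter and lay between -0.38 without pDC KO 1 and 2.55 without pDC KO 2 when 1 library was left out. With the offsets and the replicate block, the ribosomal list counted 1 higher and 2 lower and the class I list 3 higher and 1 lower. With the 2-fold requirement the cell cycle list counted 1 higher and 22 lower, the costimulation list 1 and 6, the type I interferon list 1 and 2, and the ribosomal and class I lists 0 and 0. Leaving the genes of the sorted proteins out of the lists was chosen after seeing the data. In each of these cases the cause was not tested. Of 320 genes that the rule named, 239 were called in KO; 60 of these lost the call without at least 1 library and none reversed. Each genotype has 2 cDC1 libraries, so leaving out 1 of them leaves a lone library assumed to vary like the other groups. Genes below the filter at this depth were not tested in the reported fit.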

Other observations

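Genes of the Y chromosome were counted in all 5 KO libraries, as the mixed sexes of the mice allow. Of 4 such genes tested, 2 were called higher and 0 lower in pDC KO, with a median log2 difference of 0.79. In WT, 3 were called higher and 0 lower in pDC, with a median of 1.16. Eif2s3y was called higher in pDC KO (log2 0.90, adjusted p = 0.0466 in edgeR), a call lost when any 1 of the 5 KO libraries, pDC or cDC1, was left out. Ddx3y, an RNA helicase, stood at 396, 304 and 228 CPM in pDC KO and 235 and 174 CPM in cDC1 KO (log2 0.60 ± 0.37, adjusted p = 0.277). Kdm5d, a histone demethylase, stood at 51.9, 74.1 and 69.5 CPM in pDC KO and 27.1 and 26 CPM in cDC1 KO (log2 1.30 ± 0.35, adjusted p = 0.0115), a call lost without either cDC1 KO library (adjusted p = 0.0725 without cDC1 KO 1 and 0.0994 without cDC1 KO 2). The share of male cells in each library is not given in the labels, and its part in these values was not tested.

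Cadm1, used to mark cDC1, was uneven among the pDC WT libraries, at 961, 68.2 and 70.6 CPM, against 890.4, 861 and 701 CPM in pDC KO. The cDC1 libraries held 809 and 757 CPM in WT and 593 and 674 CPM in KO. The pDC WT 1 library thus stood near the pDC KO values and the other pDC WT libraries far below them. This gene was singled out here after its values were seen.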
